A study of Mus musculus with 12 samples.

Results

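The genes described here make fatty acids, lengthen and desaturate them, activate them for use, burn them in mitochondria, or build, coat and empty lipid droplets. They were picked by gene symbol, and the symbols were chosen with earlier results of these data known. Probe sets were taken if paired with a single gene of the Acsl, Acad, Elovl, Fads, Cpt, Scd, Plin, Agpat, Dgat, Hadh or Chk families. Those of Fasn, Acaca, Acly, Pnpla2 and Lipe were added. This gave 113 of the 45037 probe sets on the array and 53 of 18194 genes. Of these, 94 probe sets of 50 genes had a mean signal of at least 100 over all arrays and were tested. The other 19 had mean signals between 6.28 and 98.3, and Elovl2, Elovl4 and Fads3 were left without a tested probe set. Of the tested genes, 29 had more than 1 tested probe set.

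Gene expression was measured on 12 Affymetrix arrays of mouse blastocysts, the hollow embryos formed just before implantation, in 3 groups of 4. The groups were control blastocysts, which the labels call normal, blastocysts treated with 20 Ca2+ pulses, and blastocysts cultured in Ca2+-free medium. The study's title ties the treatments to the Ca2+ oscillations of the fertilised egg, so each comparison asks whether expression at the blastocyst stage differed after that signal had been changed. The sources used here give no strain, age, pulse form, time in Ca2+-free medium or number of embryos per array. They also do not say whether replicates were separate collections, so the p-values rest on a spread between arrays that may be technical. Signals are in intensity units after every array was scaled to the same trimmed mean. Differences are log2 changes of signal plus 32, folds are on that scale, and "called" means a Benjamini-Hochberg adjusted p under 0.05 over all 27808 probe sets tested.

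Fatty acid synthesis starts in the cytosol, where Acly turns citrate into acetyl-CoA, Acaca carboxylates it to malonyl-CoA and Fasn builds the chain. Elongases of the Elovl family lengthen the chain at the endoplasmic reticulum, and Scd and Fads enzymes add double bonds. For oxidation, Acsl enzymes couple fatty acids to CoA, carnitine palmitoyltransferases carry them into mitochondria, and acyl-CoA dehydrogenases and the Hadh proteins run the steps of each cycle. For storage, Agpat and Dgat enzymes esterify fatty acids to a glycerol backbone, perilipins coat the droplet, and Pnpla2 and Lipe release the fatty acids again. Preimplantation embryos hold lipid droplets and can use fatty acids as fuel.

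The promoters of 4 genes on which the results turn are shown first: Fasn and Elovl1 as synthesis genes, Pnpla2 as the lipase that starts triacylglycerol breakdown, and Chka as a phospholipid gene. Each window runs from 250 bases before to 50 bases after the start of the gene in RefSeq (GRCm38.p6), 5′ to 3′ on the strand of the gene. Capitals mark matches, on either strand, to the E-box CACGTG, the sterol regulatory element core TCACNCCAC, the CCAAT box CCAAT and the GC box GGGCGG, and matches may overlap each other. The Fasn window is chr11:120824498-120824797 on the minus strand, Elovl1 is chr4:118427843-118428142, Pnpla2 is chr7:141454938-141455237 and Chka is chr19:3851523-3851822, the last 3 on the plus strand.
Fasn: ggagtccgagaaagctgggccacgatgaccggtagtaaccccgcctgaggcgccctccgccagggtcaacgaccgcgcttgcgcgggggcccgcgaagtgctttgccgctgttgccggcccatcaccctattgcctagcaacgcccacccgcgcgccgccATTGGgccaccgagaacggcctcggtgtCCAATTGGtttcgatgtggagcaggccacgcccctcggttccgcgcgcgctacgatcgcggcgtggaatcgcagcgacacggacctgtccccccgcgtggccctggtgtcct
Elovl1: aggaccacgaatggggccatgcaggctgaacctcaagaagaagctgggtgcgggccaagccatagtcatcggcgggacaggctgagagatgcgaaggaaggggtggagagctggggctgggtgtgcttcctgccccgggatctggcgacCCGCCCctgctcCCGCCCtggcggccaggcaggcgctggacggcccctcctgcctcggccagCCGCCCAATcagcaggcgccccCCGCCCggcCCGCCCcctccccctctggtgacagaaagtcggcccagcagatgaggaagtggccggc
Pnpla2: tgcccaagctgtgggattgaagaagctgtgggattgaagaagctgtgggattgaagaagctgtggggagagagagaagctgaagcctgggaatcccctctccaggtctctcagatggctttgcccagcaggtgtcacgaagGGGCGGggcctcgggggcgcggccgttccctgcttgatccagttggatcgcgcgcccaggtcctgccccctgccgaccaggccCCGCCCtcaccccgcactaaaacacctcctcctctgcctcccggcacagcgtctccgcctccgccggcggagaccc
Chka: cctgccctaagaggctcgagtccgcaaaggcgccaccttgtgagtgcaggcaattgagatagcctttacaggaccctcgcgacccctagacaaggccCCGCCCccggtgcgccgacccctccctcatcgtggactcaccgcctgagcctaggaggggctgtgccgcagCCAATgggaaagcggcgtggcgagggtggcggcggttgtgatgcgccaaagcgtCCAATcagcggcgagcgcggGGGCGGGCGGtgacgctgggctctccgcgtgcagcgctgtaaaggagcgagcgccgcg
The Fasn window held 3 CCAAT matches and no GC box, the Pnpla2 window 2 GC boxes and no CCAAT match, and the Elovl1 and Chka windows both kinds. Among all 32817 windows of this length, 7.15% held the E-box, 1.24% the sterol regulatory element core, 37.4% a CCAAT match and 35.6% a GC box. Of the 52 windows found for 45 of the genes, 4 held the E-box (Elovl4, Elovl5, Lipe and Plin2), 0 the sterol regulatory element core, 24 a CCAAT match and 37 a GC box. A match is a description of letters and not of binding.

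The Ca-free arrays differed from the others in ways that bear on every value below. Their deposited median signals lay between 38.3 and 39.2, against 49.4 to 53.05 on the control arrays and 47.4 to 53.7 after 20 pulses, at the same trimmed mean of 150.001. For Gapdh, the log2 signal at the 3′ end of the transcript minus that at its 5′ end, a measure of how complete the labelled RNA is, differed by -0.88 between Ca-free medium and control (exact permutation p = 0.0286, two-sided, the minimum over 70 arrangements). After 20 pulses it differed by -0.15 (exact p = 0.429), and for Actb the differences were -0.205 in Ca-free medium (exact p = 0.429) and -0.42 after 20 pulses (exact p = 0.0857). The Actb log2 ratio split the controls. It was 0.6655 and 0.7365 on control arrays 1 and 2, but 1.4264 and 1.3993 on control arrays 3 and 4. The pulse arrays lay between 0.5771 and 0.7529, near control arrays 1 and 2. The mean log2 signal of the hybridization controls, RNAs added after labelling, differed by 0.21 in Ca-free medium (exact p = 0.0286) and by -0.16 after 20 pulses (exact p = 0.0571). In Ca-free medium against control, dim probe sets were called lower more often than bright ones. Between signals of 100 and 300 on average, 2.39% of all probe sets were called higher and 39% lower, and from 1000 upwards 30.1% were called higher and 8.43% lower. The blastocyst markers Krt8, Krt18, Pou5f1, Nanog, Sox2, Cdx2, Eomes, Gata4, Gata6 and Tfap2c were all tested, and 2 of their 18 probe sets were called higher and 2 lower in Ca-free medium.

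In Ca-free medium against control, fatty acid synthase, several elongases and several Agpat enzymes, which make phosphatidic acid, rose, and both lipases fell. Oxidation genes were called in both directions: Acad9, Acad11, Acadl, Hadha and 2 probe sets of Hadhb rose, and 5 dehydrogenase probe sets, Cpt1c and 1 of 3 Cpt1a probe sets were among those that fell. Droplet coat proteins and diacylglycerol acyltransferases were not called in either direction. Of the 94 tested probe sets, 21 were called higher and 19 lower, where 10.6% of all probe sets were called higher and 29.7% lower (40.3% in all). Their median change was -0.0074, against -0.18 for all probe sets. The arrays of both groups did not overlap for 34 of the 94, against 36.2% of all probe sets. In whole embryos, fewer cells of a type and less RNA per cell cannot be told apart. By gene, 14 were called higher only, 15 lower only, 3 in both directions by different probe sets (Agpat5, Elovl1 and Hadhb) and 18 not at all.

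The balance followed the signal here as well. Among members with a mean signal between 100 and 300, 3 of 30 were called higher and 8 lower, and from 1000 upwards 13 of 34 were called higher and 3 lower. The part of signal strength and of RNA completeness in these results was not tested. The calls also moved with how the arrays were put on a common scale: 6 of the 40 were called in the same direction under all 4 scalings tried. These were Agpat1, Fasn, Acad9 and 1 probe set of Agpat5 among those that rose, and Acad10 and Pnpla2 among those that fell. Over all probe sets the median change was -0.02 after quantile normalization, 0.20 after median scaling and -0.36 after scaling to the hybridization controls. Median scaling called 50 of the members higher and 3 lower, and hybridization control scaling called 4 higher and 35 lower.

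**Figure D1:**
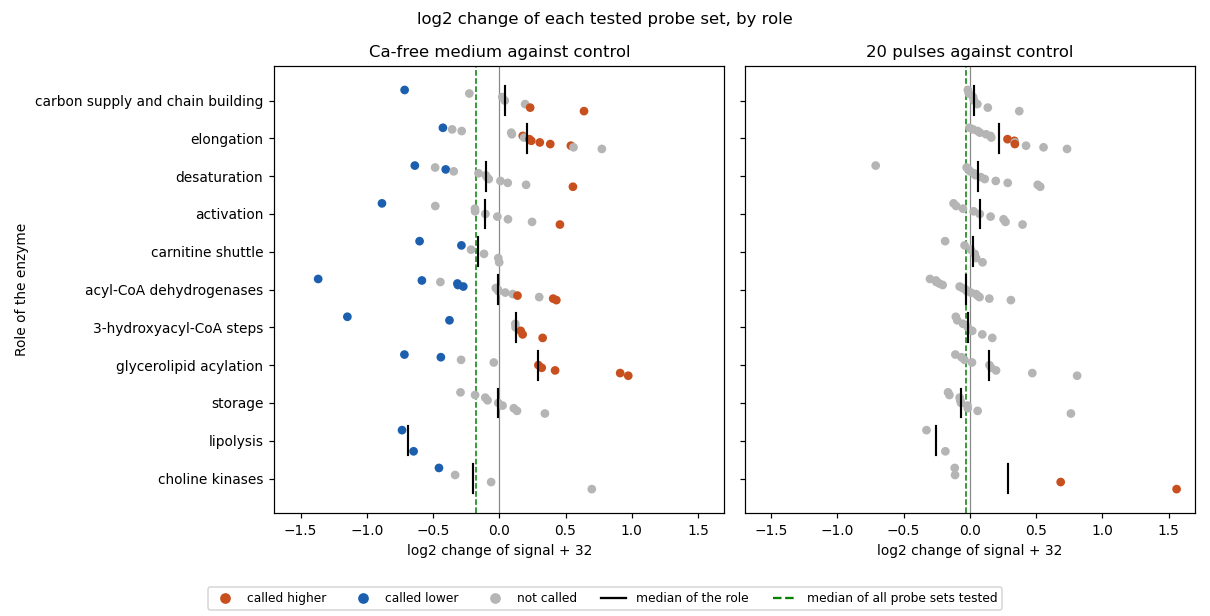
Log2 change of signal plus 32 (x axis) of each of the 94 tested probe sets, sorted by the role of the enzyme (y axis), for Ca-free medium against control (left) and 20 pulses against control (right). Orange points were called higher and blue points lower, grey points were not called, black bars are the median of the role and the green dashed line is the median of all probe sets tested. In Ca-free medium both lipolysis probe sets lie left of zero and all 9 storage points are grey, while after 20 pulses only elongation and choline kinase points are coloured.

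Among the enzymes that supply carbon and build the chain, 2 of 7 probe sets were called higher and 1 lower. Fasn, which assembles the saturated chain, read 881, 939, 1060 and 1176 on control arrays, 1111, 1272, 1439 and 1468 after 20 pulses, and 1730, 1321, 1469 and 1896 in Ca-free medium. Every Ca-free array lay above every control array, and the arrays after 20 pulses overlapped with both groups. Fasn rose by 0.64 ± 0.12 (SE; 1.56-fold, 95% confidence interval 0.38 to 0.90, adjusted p = 0.00164) in Ca-free medium. The rise was called under all 4 scalings and with each array left out (0.56 to 0.73).

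Acaca, the enzyme that commits acetyl-CoA to synthesis, rose less. Its probe set 1434185_at read 919, 978, 974 and 1015 on control arrays and 1045, 1290, 1157 and 1108 on Ca-free arrays, and the groups did not overlap. The change was 0.23 ± 0.08 (adjusted p = 0.0328), and the call ended without control array 1, 2 or 3 or Ca-free array 2 or 3, where the adjusted p lay between 0.058 and 0.102. It was also lost after quantile normalization and hybridization control scaling. The other Acaca probe set was not called, with a change of -0.23. Acly gave 3 probe sets that were not called, with changes of 0.04, 0.02 and 0.20. The fourth, 1446315_at, fell by 0.71 ± 0.19 (adjusted p = 0.009) from a control mean of 279 ± 72.5 (SD, n = 4) to 160 ± 49.0 (n = 4), so the probe sets of this gene disagreed. The call of that probe set ended under quantile normalization and median scaling.

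Of 14 elongase probe sets, 6 were called higher and 1 lower, with a median change of 0.21. Elovl1, which makes very long saturated chains, read 897, 855, 883 and 921 on control arrays and 1211, 1080, 1189 and 1207 on Ca-free arrays on probe set 1455994_x_at. The groups did not overlap, and the change was 0.39 ± 0.07 (1.31-fold, adjusted p = 0.00133). A second Elovl1 probe set, 1456530_x_at, rose by 0.24 ± 0.07 (adjusted p = 0.00984). Both have the suffix x_at, which marks probes similar to other sequences, here and wherever it is given below. Another Elovl1 probe set, 1425676_a_at, fell by 0.43 ± 0.13 (adjusted p = 0.0214), a call that ended without control array 3 or 4 or Ca-free array 1 or 4 (adjusted p between 0.0515 and 0.0685). The probe sets of Elovl1 therefore disagreed in direction. All 3 changes kept their direction under the other scalings, but neither rise was called under hybridization control scaling, and the fall was not called after quantile normalization or median scaling.

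Elovl6, which lengthens palmitate, read 3380, 3381, 3253 and 3329 on control arrays and 4183, 4488, 4185 and 3707 on Ca-free arrays on probe set 1417403_at, again without overlap. The rise was 0.31 ± 0.07 (adjusted p = 0.00293) and was not called after quantile normalization or hybridization control scaling. The other 2 Elovl6 probe sets changed by 0.10 (1417404_at) and -0.36 (1442656_at) and were not called, so the probe sets of this gene differed in direction. Elovl7, an elongase of long chains, had 2 of 5 probe sets called higher, by 0.18 ± 0.06 (1424097_at, adjusted p = 0.0364) and 0.54 ± 0.17 (1424098_at, adjusted p = 0.0199). The first call ended without control array 1, 2 or 3 or Ca-free array 1 or 4, and its change turned to -0.03 under hybridization control scaling. The second call ended under that scaling and without control array 1 or Ca-free array 1 or 4 (0.44 to 0.68 with each array left out). The remaining called elongase was Elovl5, which lengthens polyunsaturated chains and is named here after its values were seen. It rose by 0.23 ± 0.08 (1437211_x_at, adjusted p = 0.0402) with overlapping arrays, a call lost without any of 5 of the 8 arrays.

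Of 12 desaturase probe sets, 1 was called higher and 2 lower, with a median of -0.10. Scd1 and Scd2 place the first double bond in saturated chains. The Scd1 probe sets changed by -0.10 (95% confidence interval -0.24 to 0.04) and -0.08 (-0.35 to 0.20) and were not called, and Scd2 probe set 1415822_at changed by 0.06 (-0.06 to 0.19). A dimmer Scd2 probe set, 1415823_at, read 230, 231, 236 and 119 on control arrays and 385, 290, 246 and 315 on Ca-free arrays. The groups were apart, although control array 4 stood well below the others. The rise of 0.56 ± 0.18 (adjusted p = 0.0248) shrank to 0.35 without that array (adjusted p = 0.063), and the call also ended without Ca-free array 1 or 4 and under hybridization control scaling. Fads1, which desaturates polyunsaturated chains, fell by 0.40 ± 0.15 (adjusted p = 0.0421) on 1 probe set, a call that ended without any of 6 of the 8 arrays compared (adjusted p between 0.0538 and 0.128) and under quantile normalization and median scaling. The change of Fads2 was -0.34 (-0.94 to 0.25) and was not called, and Fads2b fell by 0.64 ± 0.18 (adjusted p = 0.0118), a call lost under quantile normalization and median scaling. Fads2b passed the signal minimum only through the groups where it was high, with a Ca-free mean of 86.7.

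The acyl-CoA synthetases, which activate fatty acids for every later use, gave 1 of 9 probe sets higher and 1 lower. Acsl4 rose by 0.46 ± 0.16 on 1451828_a_at (adjusted p = 0.0359), lost without control array 3 or 4 or Ca-free array 1, 2 or 3 (adjusted p between 0.0594 and 0.11). The other Acsl4 probe sets changed by -0.18 and -0.48 and were not called. The fall was in Acsl6, named after its values were seen, by 0.89 ± 0.30 (1437031_at, adjusted p = 0.028) with overlapping arrays, and it was lost without control array 1 or 3 or Ca-free array 1 or 2, after quantile normalization and under median scaling. It passed the signal minimum only through the groups where it was high (Ca-free mean 84.7), and with no minimum the call was lost. Acsl3 showed how the Ca-free arrays differed among themselves. Its probe set 1452771_s_at read 687, 706, 768 and 767 in controls but 556, 954, 947 and 542 in Ca-free medium, so Ca-free arrays 2 and 3 lay above all controls and arrays 1 and 4 below. The mean change was -0.01 (-0.36 to 0.33). Of the 94 probe sets, 38 had Ca-free arrays 1 and 4 both above arrays 2 and 3, 14 had them both below and 42 were mixed. This split was chosen after the values were seen and was not counted over all probe sets, so it cannot be called particular to these genes. The Gapdh log2 ratio split the same way, at 2.34 and 2.24 on arrays 1 and 4 and 1.63 and 1.53 on arrays 2 and 3. Its part in the split was not tested.

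In the carnitine shuttle, 0 of 6 probe sets were called higher and 2 lower, and all 6 changes were negative (median -0.16). Over all probe sets 29.7% were called lower, 18338 of 27808 changes were negative and the median was -0.18, so the shuttle was near the background. Cpt1a, which controls the entry of long chains into mitochondria, read 2620, 2654, 2514 and 2864 on control arrays and 2284, 2115, 2426 and 1914 on Ca-free arrays on probe set 1438156_x_at. The groups did not overlap and the fall was 0.29 ± 0.08 (adjusted p = 0.0107), but the change turned to 0.12 under median scaling. The second x_at probe set of Cpt1a changed by -0.21 (adjusted p = 0.0589) and the third by -0.0005 (-0.19 to 0.19). Cpt1c, a form of the enzyme best known from neurons, fell by 0.60 ± 0.15 (adjusted p = 0.0062) from 208 ± 17.9 to 128 ± 25.6 (SD, n = 4 each), a call lost under quantile normalization and median scaling. Cpt2, on the inner membrane, changed by -0.12 (-0.45 to 0.22) and was not called.

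Of 15 probe sets of acyl-CoA dehydrogenases, 3 were called higher and 5 lower. Acad9, which also helps assemble respiratory complex I, read 1704, 1989, 1874 and 1922 on control arrays and 2747, 2440, 2177 and 2810 on Ca-free arrays on 1453206_at. The groups did not overlap and the rise was 0.43 ± 0.08 (1.35-fold, adjusted p = 0.00159). It was called under all 4 scalings and with each array left out (0.38 to 0.50), while the second Acad9 probe set changed by 0.05 and was not called. Acadl, the long-chain dehydrogenase, rose by 0.14 ± 0.05 (adjusted p = 0.0442), a call that ended without any of 6 of the 8 arrays (adjusted p between 0.0617 and 0.132) and a change that turned to -0.07 under hybridization control scaling. Acad11 rose by 0.41 ± 0.15 (adjusted p = 0.0446) and lost its call without any array except control array 3. The changes of Acadm, the medium-chain enzyme, and Acadvl, the very-long-chain enzyme, were -0.03 (-0.15 to 0.10) and 0.10 (-0.20 to 0.40), with no call. Acadvl read 1188 and 1268 on control arrays 1 and 2 but 1923 and 1886 on arrays 3 and 4. The Actb log2 ratio split the controls between the same arrays, and its part in this spread was not tested.

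The dehydrogenases that fell include enzymes of branched-chain amino acid breakdown. Acadsb, which acts on a product of isoleucine, read 571, 489, 525 and 485 on control arrays and 330, 311, 375 and 323 on Ca-free arrays. Its only probe set, 1455446_x_at, has the suffix of probes similar to other sequences. The groups did not overlap, and the fall was 0.58 ± 0.09 (1.5-fold, adjusted p = 6.8e-04), a call lost under median scaling and under none of the other alternatives run. Acad8, which acts on a product of valine, fell by 0.32 ± 0.09 on 1 probe set (adjusted p = 0.014) and changed by -0.01 on the other. Acads, the short-chain enzyme, fell by 0.31 ± 0.10 (adjusted p = 0.0185), a call lost without Ca-free array 3 or 4 (adjusted p = 0.0516 and 0.0561). Under median scaling the changes of Acad8 and Acads turned to 0.06 and 0.08.

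Acad10 gave the largest fall of all members. Its probe set 1447741_x_at, again with the suffix of probes similar to other sequences, read 796, 441, 465 and 287 on control arrays and 128, 197, 173 and 155 on Ca-free arrays. The controls were widely spread but did not overlap with the Ca-free arrays. The fall was 1.37 ± 0.24 (2.58-fold, adjusted p = 9.38e-04), called under all 4 scalings and with each array left out (-1.58 to -1.12). The second Acad10 probe set fell by 0.27 ± 0.08 (adjusted p = 0.0201), lost without control array 3 and after quantile normalization, and its direction turned under median scaling.

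The 3-hydroxyacyl-CoA steps gave 3 of 7 probe sets higher and 2 lower. Hadha and Hadhb form the trifunctional protein of long-chain oxidation. Hadha rose by 0.33 ± 0.12 (adjusted p = 0.0384), a call that ended without any of 5 of the 8 arrays (adjusted p between 0.0578 and 0.115). Hadhb rose by 0.18 ± 0.05 on 1437172_x_at (adjusted p = 0.00915) and by 0.16 ± 0.06 on 1426522_at (adjusted p = 0.0494, lost without any of 5 of the 8 arrays), changes that turned to -0.03 and -0.04 under hybridization control scaling. Its dim probe set 1442732_at, fell by 1.15 ± 0.28 (adjusted p = 0.00638), from 138, 211, 118 and 183 to 102, 93.7, 22.7 and 27.9, a call lost after quantile normalization. Its Ca-free mean of 61.6 was under the signal minimum, which it passed only through the groups where it was high. Hadh, the short-chain enzyme, fell by 0.38 ± 0.09 on 1436756_x_at (adjusted p = 0.00401), which turned to 0.04 under median scaling (0.035 before rounding), and its other 2 probe sets changed by 0.12 each and were not called.

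Of 9 probe sets of glycerolipid acylation enzymes, 5 were called higher and 2 lower, with a median of 0.30. Agpat1, which makes phosphatidic acid, read 367, 306, 116 and 256 in controls, 407, 444, 509 and 446 after 20 pulses, and 400, 474, 515 and 571 in Ca-free medium on 1421025_at. Every array of both treated groups lay above every control. The rise in Ca-free medium was 0.91 ± 0.23 (1.88-fold, adjusted p = 0.00641) and was called under all 4 scalings and with each array left out (0.61 to 1.09). It was smallest, at 0.61, without control array 3. The other Agpat1 probe set changed by -0.29 (-0.71 to 0.14) and was not called. Agpat2 rose by 0.30 ± 0.07 (adjusted p = 0.00658) from 3296 ± 266 to 4044 ± 110 (SD, n = 4 each), not called after quantile normalization or hybridization control scaling.

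Agpat3 fell by 0.44 ± 0.10 (adjusted p = 0.005), not called under median scaling. Agpat5, a mitochondrial member of the family, had 2 probe sets called higher, by 0.32 ± 0.09 (1453257_at) and 0.97 ± 0.29 (1434287_at), and 1 called lower, by 0.72 ± 0.19 (1458669_at). The first rise was not called under hybridization control scaling, and the fall was not called after quantile normalization or median scaling. The second rise rests on a group with overlap, since control array 4 read 405 and the Ca-free arrays 379 to 438. Agpat4 rose by 0.42 ± 0.12 on 1436640_x_at (adjusted p = 0.0121) and changed by -0.04 on its other probe set.

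Of the 9 storage probe sets 0 were called in Ca-free medium by limma, 1 (Plin2) had an unadjusted p under 0.05, and 0 had groups without overlap. Dgat1 and Dgat2 add the last fatty acid of triacylglycerol, and their 4 probe sets changed by between -0.29 and 0.02. Plin2, the main droplet coat protein of most cells, read 5860, 6184, 6929 and 6395 on control arrays and 6675, 7429, 6642 and 7086 on Ca-free arrays, with overlap. The change was 0.13 (0.0030 to 0.27, adjusted p = 0.0929), and its interval allows a rise of the size seen for Elovl1 on 1456530_x_at. Plin3, which coats small droplets, changed by -0.0075 (-0.25 to 0.23).

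Both lipases fell. Pnpla2, which removes the first fatty acid from triacylglycerol, read 1056, 966, 1035 and 1023 in controls, 872, 859, 779 and 723 after 20 pulses, and 650, 597, 609 and 708 in Ca-free medium. All 3 groups were separate, with 20 pulses in between. The fall in Ca-free medium was 0.65 ± 0.09 (1.57-fold, 95% confidence interval -0.83 to -0.46, adjusted p = 2.53e-04), was called under all 4 scalings, and ranged from -0.69 to -0.62 with each array left out.

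Lipe, which acts on diacylglycerol, read 258, 221, 239 and 257 on control arrays and 183, 155, 118 and 92.1 on Ca-free arrays. The groups did not overlap, and the fall was 0.73 ± 0.17 (1.66-fold, adjusted p = 0.00394), but it was not called after quantile normalization or median scaling. Lipe is abundant in adipocytes, and dim adipocyte markers moved the same way: of 5 markers with probe sets, Fabp4 and Retn had 1 tested probe set each and both were called lower. The summed signal of the 8 adipocyte probe sets was 634 to 801 in controls, 577 to 970 after 20 pulses and 385 to 580 in Ca-free medium. The defining markers Adipoq and Lep read at most 36.3 and 70.4 on any array. Of markers of other tissues, 5 of 6 oviduct and uterine probe sets, 1 of 1 cumulus and granulosa probe set and 2 of 5 hepatocyte probe sets were called lower in Ca-free medium, beside 29.7% of all probe sets and 39% of those with mean signals between 100 and 300. The oviduct and uterine markers Foxj1 and Muc16 passed the signal minimum only through groups where they were high, with Ca-free means of 84.5 and 83.8. Their part in the fall of Lipe was not tested.

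Choline kinases phosphorylate choline for phosphatidylcholine, the main lipid of the droplet surface and of membranes. In Ca-free medium 1 of 4 probe sets was called lower and 0 higher. Chka probe set 1450264_a_at read 1499, 1428, 1351 and 1436 in controls, 1369, 1267, 1358 and 1273 after 20 pulses, and 1050, 1053, 1057 and 973 in Ca-free medium. The Ca-free arrays lay below all others, and the fall was 0.46 ± 0.07 (1.37-fold, adjusted p = 4.4e-04), lost under median scaling. The other 2 Chka probe sets changed by -0.06 and 0.70 and were not called, and Chkb changed by -0.33 (adjusted p = 0.0569).

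**Figure D2:**
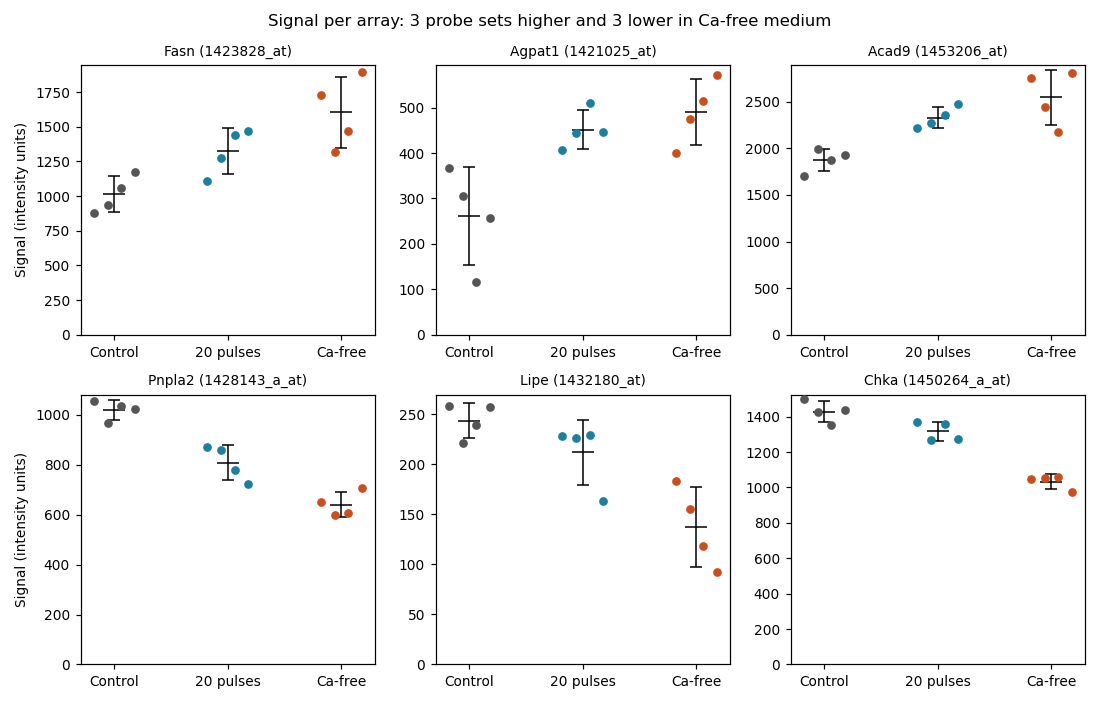
Signal in intensity units (y axis, from zero) on each array (points) of the 3 groups (x axis) for Fasn, Agpat1, Acad9, Pnpla2, Lipe and Chka, with the mean and SD of 4 arrays in black. In Ca-free medium Fasn, Agpat1 and Acad9 lie above all controls, and Pnpla2, Lipe and Chka on 1450264_a_at lie below all controls.

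Set side by side, synthesis (chain building, elongation and desaturation) had 9 of 33 probe sets called higher (27.3%) and 4 lower (12.1%) in Ca-free medium, with a median of 0.06. Oxidation (carnitine shuttle, dehydrogenases and 3-hydroxyacyl-CoA steps) had 6 of 28 higher (21.4%) and 9 lower (32.1%), with a median of -0.0089. Storage (glycerolipid acylation, Dgat enzymes and perilipins) had 5 of 18 higher (27.8%) and 2 lower (11.1%), with a median of 0.0086. Over all probe sets 10.6% were called higher and 29.7% lower, so the share of oxidation probe sets called lower was near the background. From a mean signal of 1000 upwards 30.1% of all probe sets were called higher and 8.43% lower. The shares of the arms also include dimmer probe sets, so they cannot be set against these values. Of the members, 34 had such a signal, and 13 of them were called higher and 3 lower. Their median was 0.11, beside 0.10 for all probe sets that bright. The medians of synthesis, oxidation and storage lay above that of all probe sets (-0.18), as did that of activation (-0.10). Those of lipolysis (-0.69) and the choline kinases (-0.20) lay below it. The difference between the arms was not tested.

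**Figure D3:**
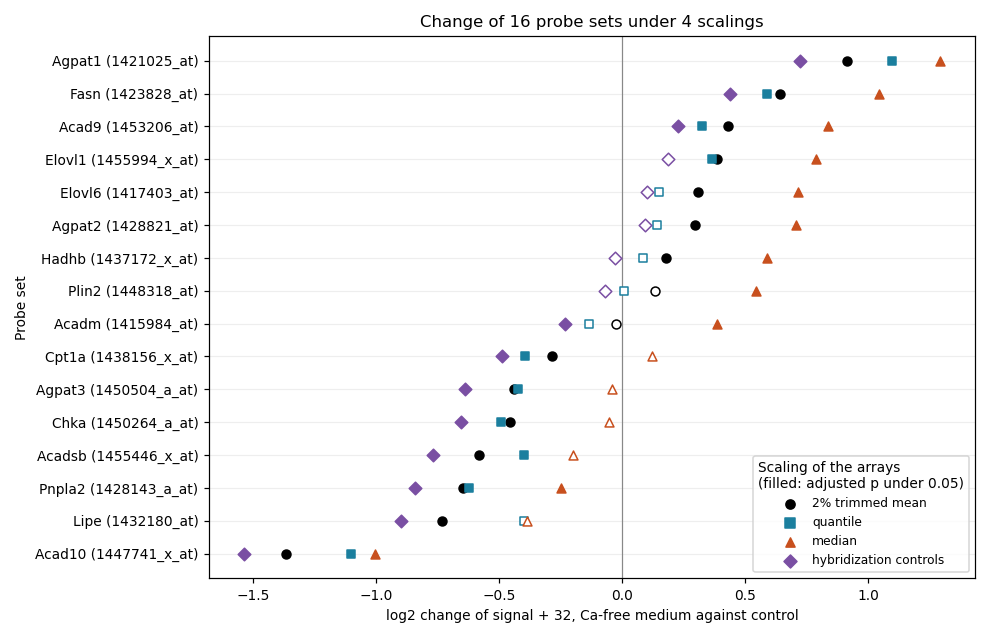
Log2 change of signal plus 32 in Ca-free medium against control (x axis) of 16 probe sets (y axis) under 4 ways of scaling the arrays, with filled symbols where the adjusted p was under 0.05. Agpat1, Fasn and Acad9 stay right of zero and Pnpla2 and Acad10 left of zero with filled symbols throughout, while Cpt1a on 1438156_x_at and Hadhb on 1437172_x_at cross zero.

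After 20 pulses few of these genes were called against control. Chka rose on probe set 1453582_at, Elovl1 on 2 probe sets and Elovl7 on 1, and a dim Chka probe set that passed the signal minimum only through the treated groups was called as well. In all, 5 of 94 probe sets of 3 genes were called higher and 0 lower, where 1.1% of all probe sets were called higher and 0.374% lower (1.48% in all). The median change was 0.03, against -0.03 for all probe sets. Groups were without overlap for 18 of the 94, against 11% of all probe sets. The 47 other tested genes gave no call, and limma called 0 of 28 oxidation and 0 of 18 storage probe sets. At an unadjusted p under 0.05, 17 of all 94 were higher and 4 lower, among them 1 higher and 2 lower of oxidation and 3 higher of storage.

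Chka gave the largest change, but on its dim probe set 1442277_at. A brighter Chka probe set, 1453582_at, read 752, 844, 515 and 523 in controls, 1092, 1099, 1001 and 1030 after 20 pulses, and 587, 634, 679 and 568 in Ca-free medium. Only the 20 pulses group lay apart from the controls, and the rise was 0.69 ± 0.13 (1.61-fold, adjusted p = 0.0246). Control arrays 1 and 2 lay above arrays 3 and 4, and with only arrays 1 and 2 as controls the change was 0.39 and not called (adjusted p = 0.12). The Actb log2 ratio split the controls between the same arrays, with control arrays 1 and 2 near the pulse arrays. Its part in the Chka rise was not tested. The dim probe set 1442277_at read 132, 37.5, 31.6 and 50 in controls and 268, 155, 238 and 266 after 20 pulses, without overlap. Its control mean was 62.7, so it passed the signal minimum through the treated groups, and with no minimum the call was lost. It rose by 1.56 ± 0.34 (2.95-fold, adjusted p = 0.0357). The third Chka probe set changed by -0.11 (-0.26 to 0.03) and was not called, so the probe sets of the gene did not all give a call.

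Elovl1 rose by 0.34 ± 0.07 on 1455994_x_at (1.27-fold, adjusted p = 0.0305), with readings of 1103, 1075, 1200 and 1158 above all control arrays. On 1456530_x_at it rose by 0.28 ± 0.07 (adjusted p = 0.0448), and 1425676_a_at changed by 0.16 and was not called. Elovl7 read 1669, 1660, 1677 and 1767 in controls, 2004, 2231, 2131 and 2214 after 20 pulses, and 1992, 1808, 1891 and 1987 in Ca-free medium on 1424097_at. Both treated groups lay above every control, and the rise after 20 pulses was 0.33 ± 0.06 (1.26-fold, adjusted p = 0.0201). The other 4 Elovl7 probe sets changed by between 0.12 and 0.56 and were not called. All 14 elongase probe sets, which belong to 5 genes, had a median of 0.22, and 13 of the changes were positive. Of these, 3 were called. Over all probe sets the median was -0.03 and 12281 of 27808 changes were positive.

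Each of these 5 calls depended on single arrays. Elovl7 lost its call without control array 3 or pulse array 2, 3 or 4 (adjusted p between 0.0581 and 0.064). Elovl1 on 1455994_x_at lost it without any array but pulse array 1, and on 1456530_x_at without any array at all (adjusted p between 0.0516 and 0.123 over both). Chka on 1453582_at lost it without control array 3 or 4 or any pulse array (between 0.0516 and 0.0735), and on 1442277_at without any array but control array 1 (between 0.0569 and 0.108). The changes kept their sign throughout, at 0.31 to 0.36 for Elovl1 on 1455994_x_at, 0.32 to 0.37 for Elovl7, 0.58 to 0.81 for Chka on 1453582_at and 1.41 to 1.86 on 1442277_at. None of the 5 was called without the intensity trend of the model. Under the other 3 scalings, all but Elovl1 on 1456530_x_at remained called.

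Fasn and Pnpla2 were not called after 20 pulses. The change of Fasn was 0.37 ± 0.12 (adjusted p = 0.147), and arrays overlapped. The change of Pnpla2 was -0.33 ± 0.09 (adjusted p = 0.0704), with every pulse array below every control. Agpat1 changed by 0.81 (0.33 to 1.29, adjusted p = 0.09) and Acad9 by 0.31 (0.13 to 0.49, adjusted p = 0.0771), both with every pulse array above every control. These 4 values share their control arrays with the Ca-free comparison, so they are not separate evidence of its direction.

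**Figure D4:**
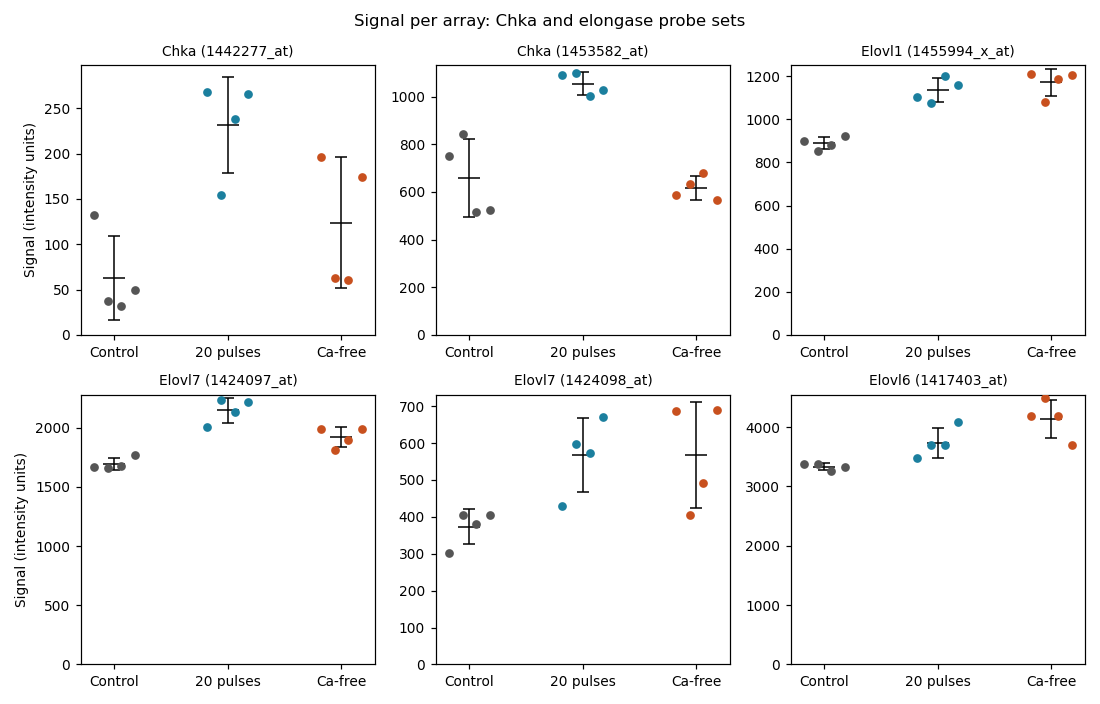
Signal in intensity units (y axis, from zero) on each array (points) of the 3 groups (x axis) for 2 probe sets of Chka, 1 of Elovl1, 2 of Elovl7 and 1 of Elovl6, with the mean and SD of 4 arrays in black. On Chka 1453582_at only the 20 pulses arrays stand above the rest, while on Elovl1 1455994_x_at both treated groups lie above all controls.

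The treatments were also compared with each other. In Ca-free medium against 20 pulses, 6 of 94 probe sets were called higher and 23 lower, where 9.22% of all probe sets were called higher and 23.4% lower (32.6% in all). The median was -0.09, against -0.17 for all probe sets, and the groups did not overlap for 22 of the 94, against 31.5% of all. Chka on 1453582_at was lower by 0.75 ± 0.13 (adjusted p = 0.00204) and Elovl6 on 1442656_at by 1.09 ± 0.18 (adjusted p = 0.00144). Elovl6 on that probe set read 383, 334, 376 and 346 in controls, 806, 507, 661 and 539 after 20 pulses, and 307, 220, 199 and 410 in Ca-free medium, so 20 pulses stood above both other groups. Its rise over control after 20 pulses was not called by limma (0.73, adjusted p = 0.0619). The brighter Elovl6 probe sets, 1417404_at and 1417403_at, differed between the treatments by 0.04 and 0.14, in the other direction, and were not called. Acad10 on 1447741_x_at was lower by 1.11 ± 0.24 (adjusted p = 0.00437). These 3 were called under all 4 scalings and with each array left out.

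Pnpla2 was lower in Ca-free medium than after 20 pulses by 0.32 ± 0.09 (adjusted p = 0.0125), which was not called after quantile normalization and turned to 0.04 under median scaling. For Fasn, Elovl1 on 1455994_x_at, Elovl7 on 1424097_at, Agpat1 and Acad9 the difference between the treatments was not called, at 0.27 (0.0039 to 0.53), 0.05 (-0.11 to 0.20), -0.16 (-0.29 to -0.02), 0.10 (-0.38 to 0.59) and 0.12 (-0.05 to 0.30). Members called higher than after 20 pulses were Acsl4, Acadl, Acad11, Agpat5, Hadhb and Hadh on 1 probe set each, and 0 of these 6 were called under all scalings.

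A further 92 genes of fatty acid and glycerolipid metabolism were listed alongside, of which 76 had 128 tested probe sets. In Ca-free medium 18 of these were called higher and 21 lower (median -0.04), beside 10.6% higher and 29.7% lower over all probe sets. After 20 pulses 2 were called higher and 0 lower, beside 1.1% and 0.374%, which is near the background. The largest rises with groups that did not overlap were Hsd17b12, the ketoacyl reductase of the elongation cycle, by 0.85 ± 0.14 (1450010_at, adjusted p = 6.84e-04), Acsbg1, an acyl-CoA synthetase, by 0.83 ± 0.19 (adjusted p = 0.00457), and Pcyt1a, which makes CDP-choline, by 0.66 ± 0.21 (1450434_s_at, adjusted p = 0.0256). Pcyt1a lost its call without Ca-free array 1 or 4 (0.38 to 0.80 with each array left out), and another probe set of it changed by -0.24 and was not called. The largest falls were Slc27a1, a fatty acid transporter, by 1.25 ± 0.26 (1422811_at, adjusted p = 0.00239), Srebf2, the regulator of sterol synthesis, by 1.00 ± 0.17 (1452174_at, adjusted p = 8.34e-04), and Acacb, the mitochondrial acetyl-CoA carboxylase, by 0.82 ± 0.18 (1445754_at, adjusted p = 0.00296). Other probe sets of Srebf2 and Acacb changed by -0.14 and 0.38 and were not called. Acacb was not called after quantile normalization, Pcyt1a was not called under hybridization control scaling, and Acsbg1 was too dim to be tested under it. Acsbg1 (control mean 75.1) and Slc27a1 on 1422811_at (Ca-free mean 65.2) passed the signal minimum only through the groups where they were high.

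After 20 pulses the 2 called were Acaa2, the mitochondrial thiolase that ends the oxidation cycle, and Hsd17b12. Acaa2 read 1694, 1781, 1766 and 1792 in controls and 2216, 2571, 2325 and 2710 after 20 pulses on 1428146_s_at, without overlap. It rose by 0.47 ± 0.07 (1.39-fold, adjusted p = 0.00786), called under all 4 scalings and with each array left out (0.42 to 0.52). Its other 2 probe sets changed by 0.25 and 0.40 and were not called. Hsd17b12 on 1450010_at read 483, 460, 365 and 356 in controls, 737, 594, 791 and 599 after 20 pulses, and 732, 728, 662 and 985 in Ca-free medium. Both treated groups lay above every control, and the rise after 20 pulses was 0.67 ± 0.14 (adjusted p = 0.0293), a call lost without control array 3 or 4 or pulse array 1, 3 or 4 (0.60 to 0.74 with each array left out).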

How the data were processed

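Affymetrix arrays of mouse blastocysts in 3 groups of 4 were used, grouped by the labels. Total RNA was isolated with the PicoPure kit and labelled with the Affymetrix small sample assay, per the labels' protocols. The authors deposited linear MAS5 intensity values, per the submitters' processing notes, and each deposited array has a 2% trimmed mean of 150.001. Here every array was rescaled to a trimmed mean of 500, 32 was added, and log2 values of the 27808 probe sets with a mean of at least 100 were fitted over all 12 arrays with limma 3.58.1 (lmFit, eBayes with an intensity trend) in R 4.3.3. A Benjamini-Hochberg adjusted p under 0.05 was called. Of the probe sets, 34958 were paired with 1 gene, 932 with several and 9211 with none in the platform annotation, 34754 were matched to RefSeq (GRCm38.p6), and only probe sets with 1 gene were named. On simulated data the fit recovered 46% of 1.5-fold, 74% of 2-fold and 94% of 3-fold changes. The simulated noise was independent between arrays and held no shift with signal, unlike the Ca-free arrays. Only 50, 100 and 50 of 27808 probe sets were given these changes, and 10 others were called falsely. In Ca-free medium 11193 probe sets were called, so the recovery shares do not carry over to that comparison.

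Members, roles and gene lists were chosen with earlier results of these data known. Named probe sets were called and had groups without overlap, up to 15 per direction and comparison, with the brightest probe set of 26 core genes and all probe sets of a named gene. Of the other pathway genes, up to 3 per direction were named. Alternatives were quantile normalization, median scaling, scaling to the hybridization controls, other added values and minimums, no trend, only the arrays compared, a replicate block, fewer arrays, other thresholds and other probe set choices. The number of arrays limits the precision.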

Additional observations from a re-analysis of the deposited data

Results flagged for a closer look

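Of 162 groups of 4 arrays, over 54 named probe sets, 9 held an array whose gap to its nearest neighbour was a larger share of the range of the group than Dixon's 95% critical value allows. Chance gives about 1 in 20. Among controls, array 4 was low for Scd2 on 1415823_at at 118.6 and high for Elovl7 on 1424097_at at 1767, and array 2 was high for Hadhb on 1437172_x_at at 8802. Among arrays after 20 pulses, array 2 was high for Agpat4 on 1428336_at at 852.1 and for Agpat5 on 1458669_at at 269.4, and array 4 was low for Lipe on 1432180_at at 163.1. Among Ca-free arrays, array 2 was low for Elovl1 on 1455994_x_at at 1080, array 3 was low for Acadl on 1448987_at at 7227, and array 4 was low for Chka on 1450264_a_at at 972.8.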

How the results depend on the processing

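The scaling of the arrays moved the counts most. In Ca-free medium against control, 21 members were called higher and 19 lower; median scaling gave 50 and 3, hybridization control scaling 4 and 35, and quantile normalization 9 lower. The counts were 10 higher and 11 lower with only control arrays 3 and 4, 12 higher with only Ca-free arrays 2 and 3, 8 and 11 at an adjusted p under 0.01, 5 and 10 with a log2 change of at least 0.5, 12 and 11 with the brightest probe set per gene, and 11 lower with a minimum signal of 300. After 20 pulses, 5 higher became 18 under hybridization control scaling, 3 with the replicate block, 2 with a log2 change of at least 0.5, 1 with the brightest probe set, and 0 without the trend, with only control arrays 1 and 2, or at an adjusted p under 0.01. The 0 lower became 1 after quantile normalization and with a minimum of 300. In Ca-free medium against 20 pulses, 6 higher became 34 under median scaling, 0 under hybridization control scaling, 3 without the trend, 0 at an adjusted p under 0.01 and 2 with a log2 change of at least 0.5. The 23 lower became 10 after quantile normalization, 5 under median scaling, 73 under hybridization control scaling, 14 with a minimum of 300, 7 at an adjusted p under 0.01, 11 with a log2 change of at least 0.5 and 12 with the brightest probe set. For the further pathway genes in Ca-free medium against control, 18 higher became 65 under median scaling, 3 under hybridization control scaling and 12 after quantile normalization, and 21 lower became 4, 50 and 6. After 20 pulses, 2 higher became 15 under hybridization control scaling. Against 20 pulses, 6 higher became 48 and 18 lower became 1 under median scaling, 0 and 92 under hybridization control scaling, and 18 lower became 6 after quantile normalization. The cause was not tested.

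Leaving out each array gave 13 to 19 higher and 16 to 19 lower in Ca-free medium against control, 0 to 6 higher and 0 to 0 lower after 20 pulses, and 2 to 9 higher and 14 to 24 lower in Ca-free medium against 20 pulses. The Gapdh ratio in Ca-free medium ranged from -1.01 to -0.74, with an exact permutation p of 0.0571, the smallest that 4 against 3 allow.

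Directions turned as follows. In Ca-free medium against control, hybridization control scaling gave -0.026 for Elovl7 on 1424097_at, -0.0296 and -0.0429 for Hadhb on 1437172_x_at and 1426522_at and -0.0684 for Acadl, and median scaling gave 0.035 for Hadh on 1436756_x_at, 0.063 for Acad8, 0.0774 for Acads, 0.12 for Cpt1a, 0.30 for Scd1, 0.38 for Acadm and 0.40 for Plin3. Against 20 pulses, hybridization control scaling gave -0.054 for Agpat5 on 1453257_at, -0.26 for Acaca, -0.21 for Hadhb, -0.17 for Acadl, -0.35 for Acly, -0.35 for Scd2, -0.36 for Acadm, -0.15 for Hadh on 1455972_x_at, -0.26 for Dgat2, -0.22 for Plin2 and -0.29 for Plin3, and quantile normalization gave -0.0261 for Hadhb. Median scaling gave 0.33 for Elovl1 on 1456530_x_at, 0.0421 for Pnpla2, 0.0262 for Chka on 1450264_a_at, 0.0313 for Agpat3, 0.0514 for Hadh on 1436756_x_at, 0.0669 for Acads, 0.13 and 0.12 for Cpt1a, 0.12 for Agpat4 on 1428336_at and 0.16 for Scd1. With only Ca-free arrays 2 and 3, chosen after seeing the data, Acsl3 on 1452771_s_at gave 0.36 against control and 0.34 against 20 pulses. For the named probe sets and the role medians, 2132 values stayed the same, 184 moved, 310 lost a call, 58 gained one and 35 turned. For probe sets, staying the same meant that direction and side of the threshold were kept. Moving meant that the direction turned without a call in either setting. Role medians were judged by the spread of the control arrays instead. The counts of called members and pathway probe sets are not in this tally.

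The labels do not say whether replicate numbers pair the samples, and this was not settled here. Deviations of arrays with the same number correlated at 0.0156 on average (-0.058 to 0.1007), against -0.00521 for other pairs, and 7 of 12 arrays correlated best with their own number. With the number as a replicate block, the members called were 19 higher and 20 lower, 3 and 0, and 7 and 23 in the 3 comparisons. Dim signals limit the lower end: 19 member probe sets had a mean under 100 and were not tested.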

Other observations

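The partners of the elongases in the elongation cycle, singled out after their values were seen, gave 5 of 11 tested probe sets called higher and 0 lower in Ca-free medium against control, beside 10.6% higher over all probe sets and 30.1% of those with a mean signal of at least 1000. Of these 5, all but Hsd17b12 on 1450010_at had such a mean, and a group picked this way supports no statement about the cycle. Besides both probe sets of Hsd17b12 these were Hacd1, Hacd2 and Tecr, dehydratases and the reductase that ends the cycle. The calls of Hacd1, Hacd2, Tecr and Hsd17b12 on 1450011_at were lost after quantile normalization and hybridization control scaling, and Tecr changed by -0.0083 under the latter.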
